A study of Rattus norvegicus with 24 samples.

Results

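The comparison of 1 Gy of radiation alone (CGy) with untreated controls (C) in rat neurospheres (NSps) is described here, as measured by polyA RNA sequencing. Its samples were taken by group: 8 of the 24 samples of the series, 4 C and 4 CGy, of which 7 entered the comparison, because the study set the control MO2 aside as an outlier. Neural progenitor cells came from the brains of Sprague Dawley fetuses at embryonic day 15 and grew as floating NSps in medium with human epidermal and fibroblast growth factors. Both groups share strain, age and medium, and neither received Noggin or ascorbic acid; the study names a vehicle in their place. C samples received 0 Gy, and CGy samples received 1 Gy of X-rays on day 3 after seeding. RNA was extracted a week after irradiation according to the study's account of its results, while its methods give a culture time of up to a week. The samples used for side-by-side values had the same doses with Noggin at 5 µM (N and NGy) or ascorbic acid at 200 µM (A and AGy), with 4 samples in each of these groups. Noggin is an extracellular antagonist of bone morphogenetic proteins, and ascorbic acid is an antioxidant. The labels do not say whether samples came from separate litters or cultures, so each p-value measures only the spread between these samples.

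Neural progenitors divide and can give rise to neurons, astrocytes and oligodendrocytes. Ionizing radiation breaks DNA in such cells, which activates p53, a transcription factor that can halt the cell cycle or start apoptosis. Progenitors that survive can leave the cycle and take on astrocyte features, such as the intermediate filament protein Gfap. Genes are given as Ensembl identifiers, and 0 of 16478 identifiers could be matched to a gene symbol in the reference list used here. Markers of progenitors, astrocytes or other cells, p53 targets and the other gene groups were therefore not analysed here by name, and the labelled cell type was not checked against its markers. Instead, the response was described through the size, direction and spread of the changes over all genes, through 4 genes given by identifier, and through the behavior of its genes in samples that played no part in choosing them.

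Values are TPM, the share of a sample's transcripts that a gene contributes after division by transcript length, as the authors deposited them before batch correction, unless stated otherwise. The listed sum ran from 617969 to 627580 TPM over the 3 C samples and from 622007 to 649751 TPM over the 4 CGy samples. Between 9478 and 9520 genes reached 1 TPM in C and between 9372 and 9591 in CGy. TPM keep no read counts, so depth is unknown. NSps were measured in bulk, so fewer cells of a type and less RNA per cell cannot be told apart.

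Most genes differed little between CGy and C. The test covered 9782 genes whose mean reached 1 TPM in C or in CGy. The change of a gene is the difference between the group means of log2(TPM + 1), which is smaller than the true log2 ratio where TPM are low. The median change was 0.047, and from the 5th to the 95th percentile the changes ran from -0.49 to 0.59. A total of 500 genes (5.11%) were at least 1.5-fold higher in CGy and 330 genes (3.37%) at least 1.5-fold lower. At least 2-fold differences were found in 93 genes higher and 60 genes lower. These counts are sizes of the mean difference only. In limma's moderated test, 2 of the 9782 genes (0.0204%) passed an adjusted p-value of 0.05 (Benjamini-Hochberg) with a change of at least 1.5-fold, and both were higher in CGy. No gene passed that was lower, although 560 genes that were lower and 873 that were higher had an unadjusted p-value under 0.05. Without MO3 the count was 6 genes, without MO15 it was 1 gene, and with MO2 included it was 0 genes, with 817 genes at an unadjusted p-value under 0.05 (limma). With all 6 groups in 1 fit the count was 14 genes, 13 higher and 1 lower. It was 586 genes, 382 higher and 204 lower, when the 2 largest components of the spread within the 6 groups entered as covariates. These components were taken from the spread of the same samples, so the count of 586 follows in part from how they were built.

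For 883 genes (9.03% of those tested) every CGy sample lay above every C sample, and for 581 genes (5.94%) every CGy sample lay below. These counts carry no test. With so few samples, part of the genes would lie without overlap by the order of the samples alone. The largest change without overlap was 2.46 among the genes higher in CGy and -1.84 among those lower, and the 100th largest were 0.79 and -0.55. The median change was 0.39 in the higher genes and -0.31 in the lower ones. Of the genes that were at least 1.5-fold higher, 230 were without overlap and 270 had overlapping groups. Of those at least 1.5-fold lower, 87 were without overlap and 243 overlapped. In both directions, and more so for decreases, most of the larger changes thus rested on group means within which single samples crossed. Higher genes made up 60.3% of the genes without overlap as deposited, 51.0% (739 higher and 710 lower) after each sample was rescaled to the same listed total, and 49.1% (774 higher and 802 lower) after quantile normalization. The excess of higher over lower genes thus depended on the scaling, and it turned to a small excess of lower genes after quantile normalization. The total of 1464 genes without overlap became 3560 without MO3, 2213 without MO13 and 758 with MO2 included. On a fixed set of genes, leaving a sample out can only add genes without overlap, and adding a sample can only remove them. The direction of these shifts was therefore set in advance.

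**Figure D1:**
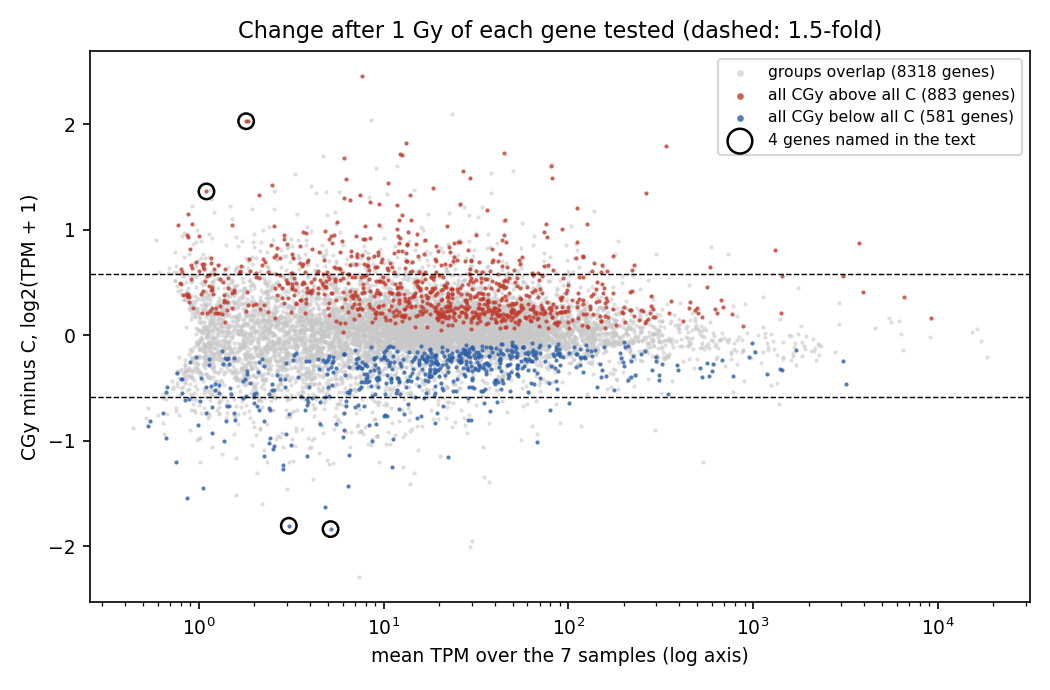
Change of each gene tested between CGy and C (vertical axis, difference of mean log2(TPM + 1)) against its mean TPM over the 7 samples (horizontal axis, log scale). Red points are the 883 genes with every CGy sample above every C sample, blue points the 581 genes with every CGy sample below, dashed lines mark 1.5-fold, and most genes in either color lie within the dashed lines.

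The separation reached from weakly to strongly expressed genes. Among the 917 genes averaging 100 TPM or more over the 7 samples, 105 (11.5%) were higher and 65 (7.09%) lower in CGy without overlap. Among the 1380 genes between 1 and 3 TPM, 90 (6.52%) were higher and 66 (4.78%) lower. By size of the mean difference, 4.36% of the genes of at least 100 TPM differed at least 1.5-fold in the mean, against 13.6% of those between 1 and 3 TPM. In the most strongly expressed class, 35 genes were at least 1.5-fold higher and 5 at least 1.5-fold lower, whereas between 1 and 3 TPM these numbers were 92 and 96. The classes were counted in the values as deposited only. Since the excess of higher genes without overlap depended on the scaling, the balance within a class may depend on it too.

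The 2 genes that passed the test in the deposited values had very low TPM in C. Both met the filter of 1 TPM only through CGy. The mean of ENSRNOG00000015523 was 0.00836 TPM in C and 3.15 TPM in CGy, and that of ENSRNOG00000021478 was 0.113 and 1.84 TPM. Their calls are therefore not independent of the filter. ENSRNOG00000015523 was listed at 1.07e-05 TPM in MO1, 0.0251 TPM in MO3 and 0 TPM in MO4. In CGy it had 3.55 TPM in MO13, 3.27 in MO14B, 2.35 in MO15 and 3.42 in MO16, so the groups did not overlap. Its change was 2.03 on the log2(TPM + 1) scale (standard error 0.12, adjusted p = 0.00474, limma), and it passed without each of the 7 samples in turn. With MO2 included, which had 0.586 TPM, its adjusted p-value was 0.0705 (limma). The low level in C was not shared by the other samples without irradiation: ENSRNOG00000015523 had 1.75 to 3.37 TPM in 3 of the 4 N samples, 2.49e-08 TPM in the N sample MO6, and 1.12 to 2.76 TPM in the A samples. Under Noggin its change with radiation was 0.55 (standard error 0.42, adjusted p = 0.383, limma) and under ascorbic acid 0.28 (standard error 0.31, adjusted p = 0.736, limma). The response under Noggin differed from that without a pretreatment by -1.48 (standard error 0.49), and the response under ascorbic acid by -1.75 (standard error 0.38). Neither difference passed the test over all genes (adjusted p = 0.232 and 0.545, limma interaction). Both differences reuse the C and CGy values that chose this gene, so they cannot serve as a measure of strength.

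ENSRNOG00000021478 was listed at 0 TPM in MO1 and MO4 and at 0.34 TPM in MO3, against 1.96, 1.86, 1.67 and 1.88 TPM in MO13, MO14B, MO15 and MO16. All CGy samples were above all C samples, and MO2 had 1.55 TPM. The change was 1.36 (standard error 0.12, adjusted p = 0.0443, limma). The call was lost without MO1 (adjusted p = 0.256), MO4 (0.107), MO13 (0.127), MO14B (0.124), MO15 (0.227) or MO16 (0.213) in limma's test, while the change stayed between 1.29 and 1.39, and it was lost with MO2 included (adjusted p = 0.561, limma). In the N samples the gene had 1.15 to 2.61 TPM without irradiation, and in NGy it had 0 to 1.35 TPM. In the A samples it ranged from 7.3e-06 TPM in MO12, as low as in C, to 1.72 TPM, and in AGy from 0.659 to 1.7 TPM. Its change under Noggin was -0.83 (standard error 0.29, adjusted p = 0.085, limma), opposite in sign to that without Noggin, and the difference between these responses was -2.20 (standard error 0.35, adjusted p = 0.108, limma). Under ascorbic acid its change was 0.27 (standard error 0.32, adjusted p = 0.752, limma), with the sign it had without a pretreatment. The difference of -2.20 reuses the C and CGy values that chose this gene, so it cannot serve as a measure of strength.

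The genes with the largest lower values in CGy without overlap did not pass the test in the deposited values. ENSRNOG00000030294 had 7.75 TPM in MO1, 7.06 in MO3 and 13.1 in MO4. In CGy it had 2.1 TPM in MO13, 3.67 in MO14B, 0.411 in MO15 and 2 in MO16. Its change was -1.84 (standard error 0.40, adjusted p = 0.314, limma), and MO2, a control, was listed at 0 TPM, below all CGy samples. N samples, without irradiation, had 1.44 to 3.78 TPM, below all 3 C samples, and A samples had 5.76 to 13.1 TPM, above all CGy samples.

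ENSRNOG00000004681 had 5.45, 4.49 and 6.84 TPM in MO1, MO3 and MO4. In CGy it had 0.116, 2.26, 2.33 and 0.00117 TPM in MO13, MO14B, MO15 and MO16. Its CGy samples thus fell into a pair near 2 TPM and a pair near 0 TPM, both below the C samples, and the change was -1.80 (standard error 0.48, adjusted p = 0.314, limma). MO2 had 3.11 TPM, also above the CGy samples, and the N samples, without irradiation, had 0.00665 to 3.58 TPM. After radiation with ascorbic acid the gene had 8.32 to 11.3 TPM, against 0.879 to 10.4 TPM with ascorbic acid alone.

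**Figure D2:**
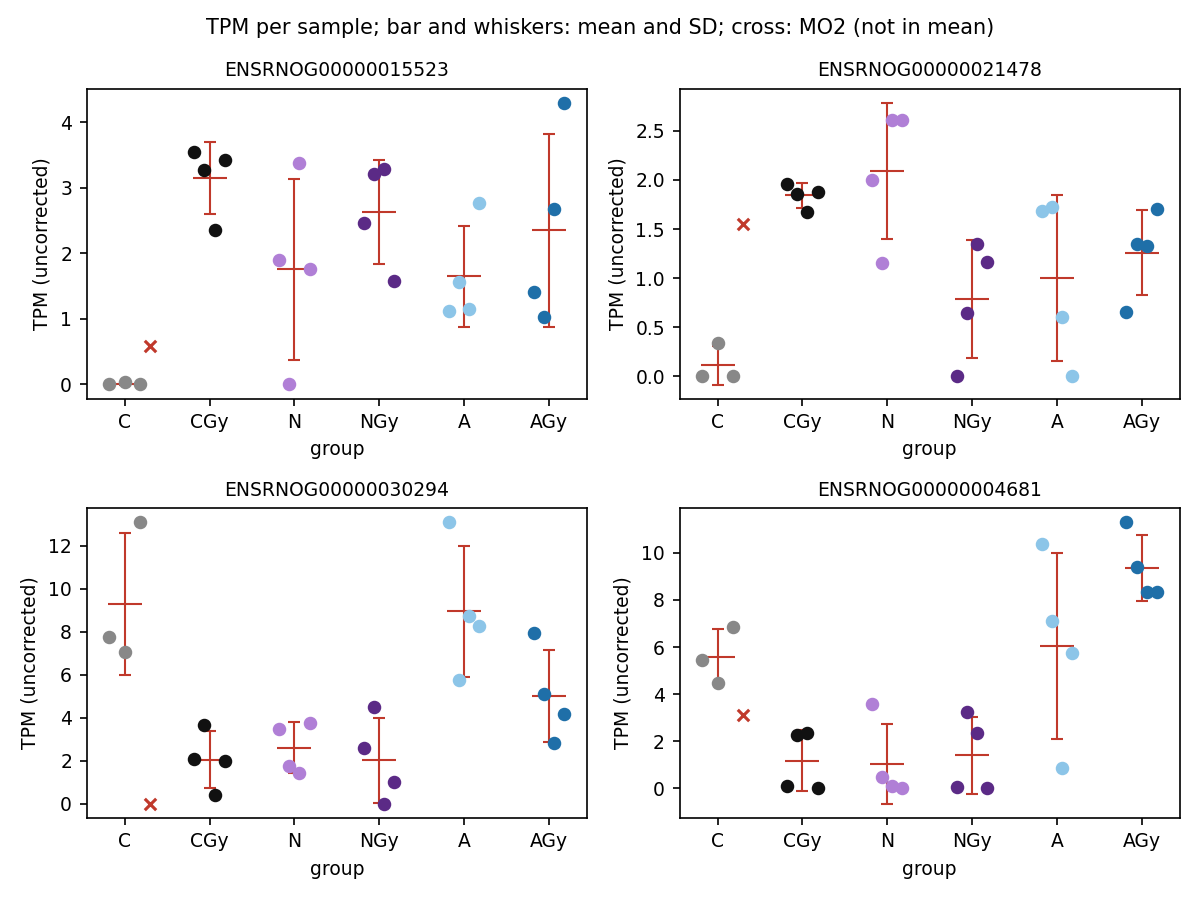
TPM before batch correction (vertical axes) of the 4 genes in each sample of the 6 groups. Points are samples, the bar and whiskers are the mean and SD of the group, and the red cross is MO2. With MO2 left aside, C and CGy do not overlap in any panel. MO2 lies below all CGy samples for ENSRNOG00000030294, at 0 TPM. Among samples that were not irradiated, the highest N and A values lie above the lowest CGy sample, at 3.37 and 2.76 TPM for ENSRNOG00000015523. For ENSRNOG00000021478 these values are 2.61 and 1.72 TPM.

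Not every sample lay nearest to its own group. Distances between samples were taken as the square root of the mean squared difference in log2(TPM + 1) across the 9782 genes. MO3, a control, was closer on average to the CGy samples (0.383) than to the other C samples (0.484), and its nearest sample was MO13 of CGy at 0.358. The other 6 samples were closer on average to their own group. Of the 7 samples, MO4 was the farthest from each CGy sample and from MO3, and it was the highest or the lowest of the 7 samples in 61.2% of genes, against 14.6% to 36% for the others. An equal share would be 28.6%. The median SD of a gene was 0.197 in C and 0.144 in CGy on the log2 scale, and for C without MO4 it was 0.107 (2 samples).

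In CGy, MO15 and MO16 were the closest pair of all at 0.320, and MO13 and MO14B were 0.362 apart. The same division appeared in NGy. Over the genes tested, the deviations of MO13 and MO14B from the CGy mean correlated with those of MO17 and MO18 from the NGy mean at r of 0.295 to 0.415, and the deviations of MO15 and MO16 correlated with those of MO19 and MO20 at 0.374 to 0.406. Across these pairs the correlations were -0.408 to -0.334. These are correlations over genes, which are not independent of each other, and deviations within a group of 4 sum to 0. With N, A and AGy samples they lay between -0.244 and 0.268. Among the controls, the deviation of MO3 from the C mean correlated at -0.293 with MO13, -0.23 with MO14B, 0.251 with MO15 and 0.296 with MO16, while MO1 and MO4 lay between -0.205 and 0.22. The labels name no batch, and the columns could not be matched to single sample titles, so no within-batch value was computed. The part of this division in the difference between CGy and C was not tested.

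**Figure D3:**
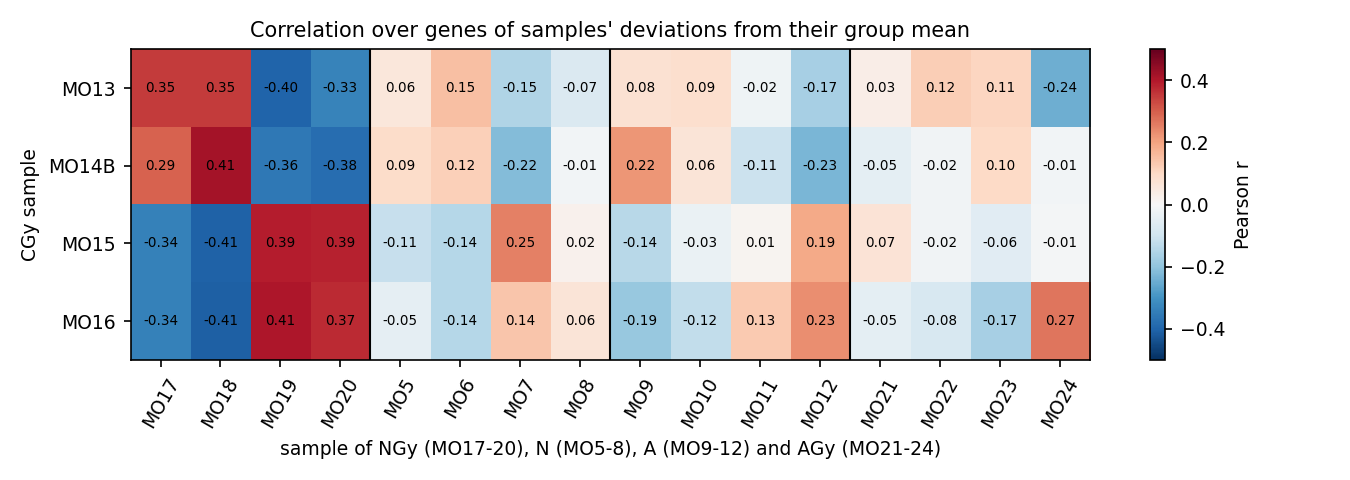
Pearson correlation over 9782 genes between the deviation of a CGy sample from the CGy mean (rows) and that of a sample from the mean of its own group (columns: NGy, N, A and AGy). Red marks positive and blue negative values, and the 4 NGy columns show MO13 and MO14B with MO17 and MO18, and MO15 and MO16 with MO19 and MO20.

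After the authors' batch correction the same group difference had a smaller error. The correction left the changes nearly as they were, with 99.9% of 9761 genes within 0.1 on the log2 scale. The median standard error of a change fell from 0.138 to 0.0748. The correction reduced the spread within groups: the median SD of a gene went from 0.197 to 0.0933 in C and from 0.144 to 0.0923 in CGy. In the corrected values 657 genes (6.73%) were called: 426 of 9763 genes (4.36%) were higher and 231 (2.37%) lower in CGy, with the same test and thresholds. The changes of ENSRNOG00000030294 (adjusted p = 0.00404) and ENSRNOG00000004681 (adjusted p = 0.0316) passed in these values (limma), as did those of ENSRNOG00000015523 (adjusted p = 0.000289) and ENSRNOG00000021478 (adjusted p = 0.000872). Of the 426 higher genes, 226 were without overlap before the correction, and of the 231 lower genes 82. The settings of the correction are not given in the sources used here. Uncorrected values came first because the correction was taken to have used the group labels. The p-values of corrected TPM do not count the degrees of freedom the correction may have used.

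The genes set apart between CGy and C were then followed in samples that did not choose them. These were NGy against N and AGy against A, which share no sample with CGy and C. Their listed sums differed with irradiation without overlap. The sums were 615930 to 628348 TPM in N and 650049 to 655264 in NGy, and 615330 to 622464 in A and 643344 to 655289 in AGy. The source of this difference was not tested, and shares after rescaling to the same total are given further below. Of the 883 genes higher in CGy without overlap, 699 (79.2%) were also higher on average in NGy than in N, against 49.2% of all 9782 genes. With ascorbic acid, 625 (70.8%) were higher in AGy than in A, against 48.3% of all genes. Of the 581 lower genes, 439 (75.6%) were lower in NGy than in N and 401 (69.0%) were lower in AGy than in A, against 50.8% and 51.7% of all genes. The changes were smaller there: the median of the higher genes was 0.16 under Noggin and 0.082 under ascorbic acid, and that of the lower genes -0.14 and -0.082. The medians of 0.39 and -0.31 in CGy against C cannot serve as a measure of strength, since these samples chose the genes. Chosen without MO4, the shares were 79.4% and 70.3% for the higher and 76.3% and 68.6% for the lower genes. With MO2 included, 673 higher genes kept shares of 75.6% and 67.3%, while the 85 lower genes had 45.9% in each case, under the share of all genes.

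Genes were also set apart without overlap in the pretreated samples. In NGy against N, all 4 irradiated samples lay above all 4 others for 238 of the 883 genes (27.0%), against 11.2% of all genes tested, and in AGy against A for 74 (8.38%, against 3.77%). Of the 581 lower genes, 144 (24.8%, against 11.8%) lay lower without overlap in NGy and 62 (10.7%, against 4.22%) in AGy. In both pretreatments together this held for 45 of the higher genes (5.1%, against 1.71% of all genes) and for 27 of the lower genes (4.65%, against 1.46%). In limma's test of NGy against N, where 0.932% of 9765 genes were called higher and 1.98% lower, 38 of the 883 higher genes were called higher and 1 lower, and 22 of the 581 lower genes were called lower. In the comparison of AGy with A no gene passed, with 1256 genes of 9859 at an unadjusted p-value under 0.05 (limma).

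Among genes with larger changes, the shares that kept their direction were as follows, with no test of the difference. Of the 230 genes at least 1.5-fold higher without overlap, 84.8% were higher in NGy and 89.1% in AGy. For the 270 genes at least 1.5-fold higher with overlapping groups the shares were 71.9% and 84.4%. Of the 87 genes at least 1.5-fold lower without overlap, 89.7% were lower in NGy and 80.5% in AGy, and of the 243 with overlapping groups 79.8% and 82.3%. Genes called only after the batch correction, whose groups overlapped before it, also kept their direction in the uncorrected values of the pretreated samples: of 200 higher genes 76.0% under Noggin and 89.5% under ascorbic acid, and of 149 lower genes 91.9% and 93.3%. The corrected values were given for all groups together, and how they were computed is not stated. This choice of genes can therefore not be taken as independent of the pretreated samples.

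**Figure D4:**
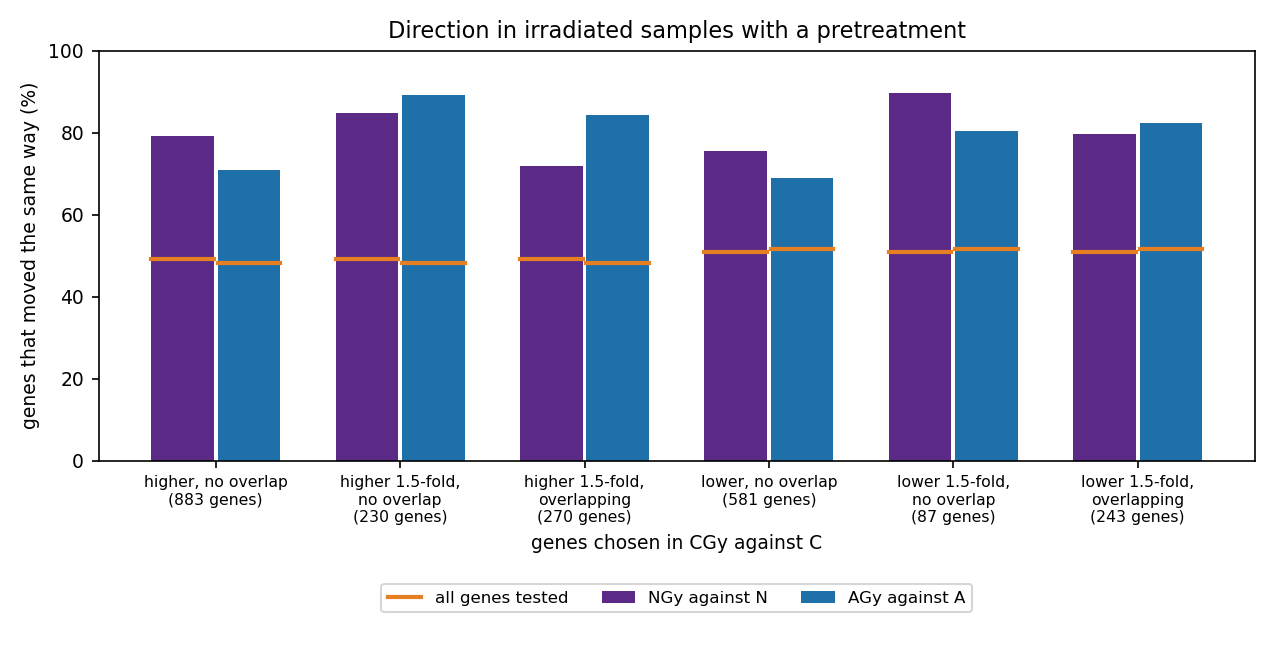
Percent of genes chosen in CGy against C (horizontal axis, with the number of genes) whose mean moved the same way with radiation in NGy against N (purple) and in AGy against A (blue). Orange lines give the percent of all 9782 genes that moved that way, between 48.3% and 51.7%, and all bars stand above them.

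A score per sample was taken as the mean log2(TPM + 1) of the 883 higher genes less that of the 581 lower genes, relative to the mean of C. In the samples that chose the genes, it was 0.12 in MO1, 0.26 in MO3 and -0.37 in MO4, against 0.71, 0.84, 0.86 and 0.93 in MO13, MO14B, MO15 and MO16. In samples that did not choose them it was 0.32 to 0.51 in N and 0.58 to 0.87 in NGy, which did not overlap. In A it was -0.21 to 0.26 and in AGy 0.00 to 0.51, which overlapped. The mean was 0.35 higher in NGy than in N and 0.23 higher in AGy than in A. All N samples lay above the 3 C samples and below the 4 CGy samples, and since C was used to choose the genes, the position of N and A relative to C is shifted by the choice.

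**Figure D5:**
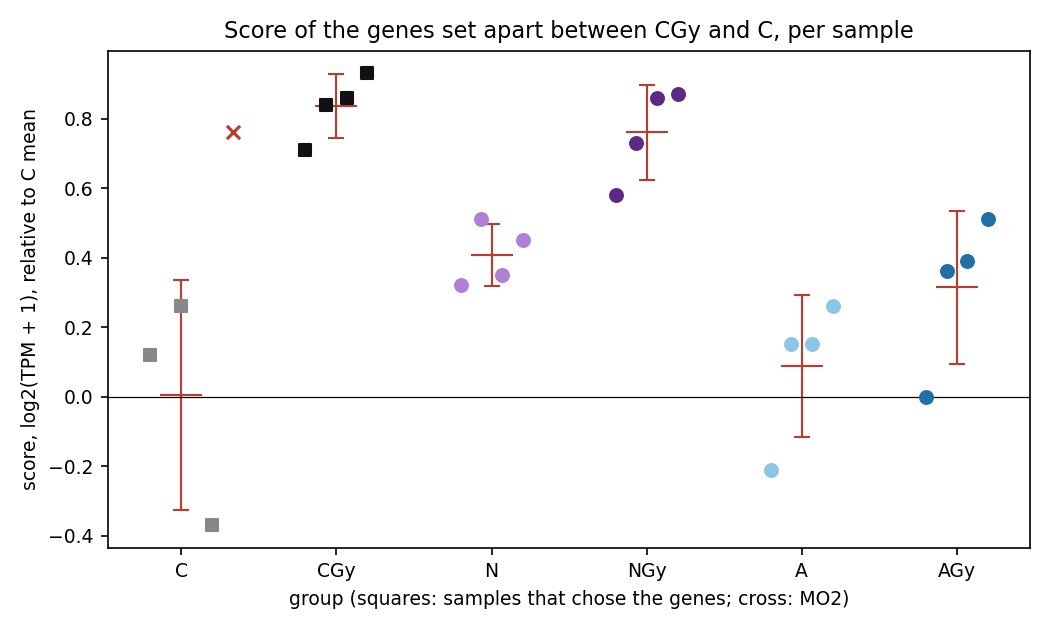
Score of the genes set apart between CGy and C in each sample (vertical axis, log2(TPM + 1) relative to the mean of C) by group. Squares are the samples that chose the genes, circles are samples that did not, the bar and whiskers are the mean and SD, and the cross is MO2; NGy lies above N without overlap, at 0.58 to 0.87 against 0.32 to 0.51, while AGy and A overlap.

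Across the 9782 genes, the change in CGy against C had a Pearson correlation of 0.413 (Spearman 0.346) with the change in NGy against N and of 0.415 (Spearman 0.349) with that in AGy against A. These values are over genes, which share libraries and are not independent replicates. The sign was the same for 60.2% and 58.3% of genes. The SD of the changes over genes was 0.338 without a pretreatment, 0.308 under Noggin and 0.240 under ascorbic acid. Each SD also holds the sampling error of the changes, and C had 3 samples while each other group had 4. The order of these SD is therefore no measure of the strength of the responses. A test of the difference between responses found 1 gene of 9958 (0.01%) for Noggin and 1 gene of 10038 (0.00996%) for ascorbic acid at an adjusted p-value of 0.05 (limma interaction), with 1648 and 754 genes at an unadjusted p-value under 0.05. Leaving out single samples moved these counts between 0 and 2, and in the corrected values they were 2392 genes for Noggin and 1126 genes for ascorbic acid.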

How the data were processed

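The authors deposited gene-level TPM from Kallisto for 24 samples, and another table, without MO2, that had been batch-corrected through NOISeq. The labels also list STAR 2.6.1, and the paper names rat build Rn7. The deposited corrected values equal 0.5 times the corrected TPM + 1. They were doubled, 1 was subtracted, and values below 0 were set to 0. Columns carry the paper's sample identifiers. They were assigned to groups from the paper's figures and methods and from the lists of C and CGy columns set for this comparison. The text of the methods ties only MO2 to a group, the controls. No column was tied to a single sample title.

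Genes averaging 1 TPM or more in C or CGy were compared on log2(TPM + 1) with limma 3.58.1 in R 4.3.3 (lmFit, eBayes, Benjamini-Hochberg). Calls required an adjusted p-value of at most 0.05 and a 1.5-fold change. Interactions required the adjusted p-value alone. Functions were tested on simulated data. Figures used matplotlib 3.10.9. Named were the genes called in the uncorrected values and the 2 largest decreases without overlap. The samples, lists and tests were chosen with earlier results of these data known. Gene lists and promoter motifs were not analysed, since 0 of 16478 identifiers matched a symbol of the GRCr8 list. TPM keep no depth.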

Additional observations from a re-analysis of the deposited data

Results flagged for a closer look

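In 54 groups of 4 values examined, 4 had a sample far from the other 3 (gap to the nearest sample, as a share of the range, above Dixon's critical value), and chance flags about 1 group in 20. MO2 was the highest of the 4 controls for ENSRNOG00000015523, at 0.586 TPM, with a gap of 0.957 of the range. That gene was chosen without MO2 and was near 0 TPM in the other 3 controls. This gap thus follows in part from the choice, and the chance rate does not hold for it. MO2 also had the fewest genes of at least 1 TPM among controls, 8627, with a gap of 0.953. The N sample MO5 was the highest of its group for ENSRNOG00000004681, at 3.58 TPM, with a gap of 0.863. The AGy sample MO23 had the highest listed sum of its group, 655289 TPM, with a gap of 0.857.

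The response to radiation of 1 gene differed between Noggin and no pretreatment (adjusted p = 0.0133, limma interaction). It had 5.89 to 7.79 TPM in C and 9.30 to 9.85 in CGy, a change of 0.42 (standard error 0.10, adjusted p = 0.314, limma), but 12.6 to 14.4 TPM in N and 7.75 to 9.72 in NGy, a change of -0.60 (standard error 0.079, adjusted p = 0.00818, limma). The difference was -1.02 (standard error 0.12). MO2, which was not in the test, had 0.956 TPM of this gene, below the C samples. For ascorbic acid the response of 1 gene differed by 1.58 (standard error 0.20, adjusted p = 0.0276, limma interaction). It had 2.52 to 4.39 TPM in C, 2.04 to 2.85 in CGy, 1.07 to 1.70 in A and 4.01 to 5.53 in AGy. Its change was -0.38 (standard error 0.16, adjusted p = 0.341, limma) without a pretreatment. Under ascorbic acid it was 1.2 (standard error 0.12, adjusted p = 0.0509, limma), which did not pass. MO2 had 6.38 TPM of this gene, above the C samples.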

How the results depend on the processing

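No paired analysis was possible because the columns carry no replicate numbers of the labels. The alternatives on gene lists were not run, since identifiers could not be matched to names. In CGy against C before correction, 2 genes were called as reported; the count was 0 with MO2 included (817 genes at an unadjusted p-value under 0.05) and with a filter of 5 TPM (1225 genes, limma), 1 with no filter or with a variance trend, 14 with all 6 groups in 1 fit and 586 with 2 components as covariates. It was 1 to 6 with each sample left out. The 1464 genes without overlap became 758 with MO2, 3990 after the correction and 1699 to 3560 with each sample left out. For MO2 and the left-out samples, the direction of the shift follows from the number of samples. The corrected count of 657 became 2974 on the adjusted p-value alone and 608 to 681 with each sample left out. The interaction counts of 1 became 2392 for Noggin and 1126 for ascorbic acid in corrected values, 0 in both with MO2 (1136 and 559 genes at an unadjusted p-value under 0.05, limma), 3 for ascorbic acid with a pseudocount of 0.1, and 0 to 2 in both with each sample left out: for Noggin 2 without MO3 or MO14B and 0 without MO15 or MO16, and for ascorbic acid 2 without MO3 or MO4 and 0 without MO1, MO13, MO15 or MO16. These alternatives were set with earlier results known. For the shares that moved the same way in pretreated samples, alternatives were chosen after seeing the data. Rescaling to the same total gave, for Noggin, 67.4% of higher and 82.4% of lower genes (38% and 61.9% of all genes), and for ascorbic acid 57.8% and 80.6% (35.1% and 64.9% of all genes). Quantile normalization gave 74.3% for the higher genes under ascorbic acid (50% of all genes). MO2 gave 75.6% and 45.9% for Noggin and 67.3% and 45.9% for ascorbic acid. No change of a named gene reversed in 12 alternatives each. With a pseudocount of 0.1 the changes of ENSRNOG00000015523 and ENSRNOG00000021478 were 4.90 and 3.56 (adjusted p = 0.000271 and 0.257, limma). The causes of these shifts were not tested. Low TPM and unknown depth limit the genes near 1 TPM.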

Other observations

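MO2, the control set aside by the study, had a score of 0.76 over the genes set apart between CGy and C, between those of MO13 and MO14B. This score rested on low values in both parts: its mean log2(TPM + 1) was 3.79 over the genes higher in CGy, the lowest of the 24 samples, and 3.51 over the genes lower in CGy, against 4.15 to 4.70 in the other samples. MO2 lay 1.16 to 1.31 from the other 7 samples of C and CGy, which were at most 0.721 apart. The part of this library's quality in these values was not tested.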
